A study of Mus musculus with 20 samples.

Results

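The corticotropin-releasing hormone (CRH) system was followed through 4 genes: Crh, which encodes the peptide, Crhr1 and Crhr2, which encode its receptors, and Crhbp, which encodes its binding protein. The genes were chosen by name, and all 4 have a row in the table of 12988 genes. RNA came from mouse adBNST, the anterodorsal division of a basal forebrain nucleus, the bed nucleus of the stria terminalis. The groups were female controls, stressed females, male controls and stressed males, each with 15 mice, selected when they were 7 to 9 weeks old. Stressed mice went through 6 weeks of chronic variable mild stress, a randomized schedule of changing minor stressors such as wet bedding, cage tilt, isolation, cold, swimming and restraint. The last stressor was wet bedding, and dissection followed it by 1 hour; controls were kept under control conditions. All mice received ketamine anesthesia, and the nucleus was microdissected from slices. Each library holds RNA from the pooled tissue of 3 mice, with 5 libraries per group and 20 overall. No transgene or mutation is named in the labels, and the strain is not given in the sources used here.

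CRH is the peptide through which the paraventricular hypothalamus starts the release of pituitary corticotropin, and it is also a transmitter of neurons in the extended amygdala, to which the bed nucleus belongs. The receptors CRHR1 and CRHR2 couple mainly to the stimulatory G protein and raise cyclic AMP. CRHR1 binds CRH with high affinity, whereas CRHR2 prefers the urocortins. CRHBP is a secreted protein that binds CRH and urocortin outside the cell and limits their access to the receptors. In this nucleus many CRH neurons are GABAergic, and CRH signalling there is known for its part in sustained, anxiety-like responses to stress.

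Total counts per library ran from 2.71e+06 to 3.36e+07, and the shallowest library was female control 4. Counts of Crh ran from 47 to 806 per library, of Crhr1 from 15 to 309, of Crhr2 from 24 to 435 and of Crhbp from 13 to 226, so no library had 0 counts for any of the 4. Markers of GABAergic and extended amygdala neurons were present in every library: the 13 genes of that list summed to between 2633 and 3043 CPM (counts scaled to library size, with TMM factors), and its most abundant gene was Gad2, a GABA-synthesizing enzyme, at 1125 CPM. Markers of the neighbouring striatum were also present, at 1914 to 4250 CPM for 11 genes, as were 6 genes listed for the lateral septum, at 201 to 341 CPM. The most abundant of these were Pde10a for the striatum and Zic1 for the septum. Stressed female 2 had the highest sums of the thalamic, cortical and hypothalamic lists (273, 56.8 and 54.5 CPM, over 7 of 7, 3 of 6 and 3 of 9 listed genes). The next highest were 225 and 47.6 CPM in female control 3 and 31.6 CPM in female control 4. The lowest sums were 159, 28.7 and 6.64 CPM. Rorb is on both the thalamic and the cortical list. Over all libraries, oligodendrocyte markers summed to 7191 to 12893 CPM, astrocyte markers to 4842 to 5761, microglial markers to 316 to 406, endothelial markers to 192 to 237, vascular smooth muscle markers to 31.1 to 54.5 and choroid plexus markers to 31.6 to 43.0. No measured marker was at 0 in any library. In bulk tissue, fewer cells of a type and less RNA per cell cannot be told apart.

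All 4 genes lie on autosomes, and in GENCODE M21 (GRCm38) 0 other genes overlap any of them. Crh is at chr3:19693401-19695396 on the minus strand and has 2 exons. Crhr1 is at chr11:104132855-104175523 on the plus strand with 13 exons, Crhr2 at chr6:55090049-55133016 on the minus strand with 12 exonic blocks over 9 transcripts, and Crhbp at chr13:95431371-95444924 on the minus strand with 7 exonic blocks. Per kilobase of merged exons, the level of Crh averaged 14.4 ± 3.11 CPM per kb (SD over 20 libraries), above 72.2% of the 12796 genes with a length. The receptors and the binding protein were much lower on the same scale. The level of Crhbp averaged 3.44 ± 0.540 CPM per kb, that of Crhr1 3.27 ± 0.434 and that of Crhr2 1.77 ± 0.395, above 27.6%, 26.1% and 12.9% of genes. Crhr2 has a long merged model: over its longest transcript its level was 3.10 ± 0.691 CPM per kb, still below Crhr1 on average but by less than the spread between libraries.

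Promoter windows from RefSeq (GRCm38.p6), 250 bases before to 50 bases after a start site, were found for 3 of the 4 members: Crhr1, Crhr2 and Crhbp. They are shown because these 3 genes encode the parts of the system that receive or limit the peptide, and their windows differ in base composition. Capitals mark matches, on either strand, to the cyclic AMP response element TGACGTCA, its core TGACG, the glucocorticoid element arm TGTTCT or the estrogen element arm AGGTCA. The windows are chr11:104132531-104132830 on the plus strand, chr6:55132967-55133266 on the minus strand and chr13:95444782-95445081 on the minus strand.
Crhr1: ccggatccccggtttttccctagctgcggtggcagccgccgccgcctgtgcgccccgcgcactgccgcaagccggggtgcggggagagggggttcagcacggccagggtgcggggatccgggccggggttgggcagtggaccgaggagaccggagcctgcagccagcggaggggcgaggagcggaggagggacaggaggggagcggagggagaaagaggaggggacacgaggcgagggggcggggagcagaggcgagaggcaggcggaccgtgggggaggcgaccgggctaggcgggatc
Crhr2: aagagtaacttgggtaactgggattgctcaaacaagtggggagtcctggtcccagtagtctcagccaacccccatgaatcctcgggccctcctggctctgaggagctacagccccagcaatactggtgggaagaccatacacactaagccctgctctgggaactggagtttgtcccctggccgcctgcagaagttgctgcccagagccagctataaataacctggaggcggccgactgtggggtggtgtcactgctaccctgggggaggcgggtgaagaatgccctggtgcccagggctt
Crhbp: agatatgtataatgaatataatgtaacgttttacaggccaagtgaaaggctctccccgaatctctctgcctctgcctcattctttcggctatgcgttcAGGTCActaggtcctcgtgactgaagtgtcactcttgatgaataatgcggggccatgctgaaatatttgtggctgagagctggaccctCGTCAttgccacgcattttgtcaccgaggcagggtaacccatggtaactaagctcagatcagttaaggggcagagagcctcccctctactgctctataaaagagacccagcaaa
The Crhr1 window is 75% G and C, more than 96.1% of all 32851 windows, against 59% in Crhr2 and 48% in Crhbp. Crhbp alone of the 3 held a match: the core TGACG on the opposite strand, starting 64 bases before the RefSeq start site, and AGGTCA, starting 152 bases before it. The RefSeq and GENCODE starts of Crhbp differ. The core match, at chr13:95444891-95444895, lies inside the GENCODE gene, which starts at 95444924 on the minus strand. Of all windows 20.8% hold TGACG, 16.3% AGGTCA, 19.0% TGTTCT and 1.79% the full element TGACGTCA, which contains the core. A match describes these letters only.

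Crh was the member whose groups stood apart, through the male controls. In CPM, libraries 1 to 5 of the male controls held 25.7, 23.3, 23.3, 24.6 and 25.2, and those of the stressed males 21.6, 18.7, 13.2, 18.9 and 16.0. The stressed females held 22.1, 14.9, 19.5, 19.1 and 11.4 CPM, and their controls 16.8, 16.5, 14.5, 17.7 and 17.4. All 5 male control libraries lay above all 15 others, of which the highest was stressed female 1. The share of all genes with this separation was not counted. The 3 other groups overlapped each other. Group means were 24.4 ± 1.10 CPM in male controls, 17.7 ± 3.18 in stressed males, 17.4 ± 4.25 in stressed females and 16.6 ± 1.24 in female controls (SD, n = 5 each), and in this order the neighbours below the male controls differed by less than their spread.

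The sex difference in Crh was asked first in unstressed mice. Male controls were 1.49-fold above female controls (95% interval 1.22 to 1.83), with an adjusted p of 0.0507 in edgeR's quasi-likelihood test over all genes, just outside the threshold of 0.05. Of the 12988 genes, 0.747% were called in this comparison and 0 of the 4 members were. An unadjusted p under 0.05 was found for 15.3% of genes and for 1 member, Crh, which ranked 103rd of 12988 by p. The 5 male and 5 female control libraries did not overlap for Crh, as was the case for 3.97% of genes. In stressed mice the levels of the sexes overlapped: the log2 difference was 0.032 (SE 0.13, 95% interval -0.25 to 0.31). The background there was 0.077% of genes called, 7.06% with an unadjusted p under 0.05 and 1.27% without overlap, with 0 members in each count.

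The effect of stress on Crh was asked in each sex. In males the stressed libraries were 1.42-fold below the controls (log2 fold change -0.50, 95% interval -0.78 to -0.23, adjusted p 0.0912), and the 5 stressed libraries all lay below the 5 controls. This comparison called 0.0077% of genes, a single gene, and 0 members. Of all genes 15.5% had an unadjusted p under 0.05 and 4.3% had groups that did not overlap, and Crh was the 1 member in each count. In females the log2 fold change was 0.046 (95% interval -0.25 to 0.34) and the libraries overlapped. There, 0% of genes were called, 7.51% had an unadjusted p under 0.05 and 1.22% did not overlap, with 0 members in each count. The male and the female stress effect on Crh differed by -0.55 (SE 0.19, adjusted p 0.354), in an interaction that called 0% of genes and gave 10.4% of them, Crh included, an unadjusted p under 0.05. Averaged over the sexes, the log2 fold change with stress was -0.23 (adjusted p 0.342). That comparison called 0% of genes and gave 12.7%, with Crh again the 1 member, an unadjusted p under 0.05. The sex difference in controls and the stress effect in males share the male control libraries, so they are not independent of each other.

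**Figure D1:**
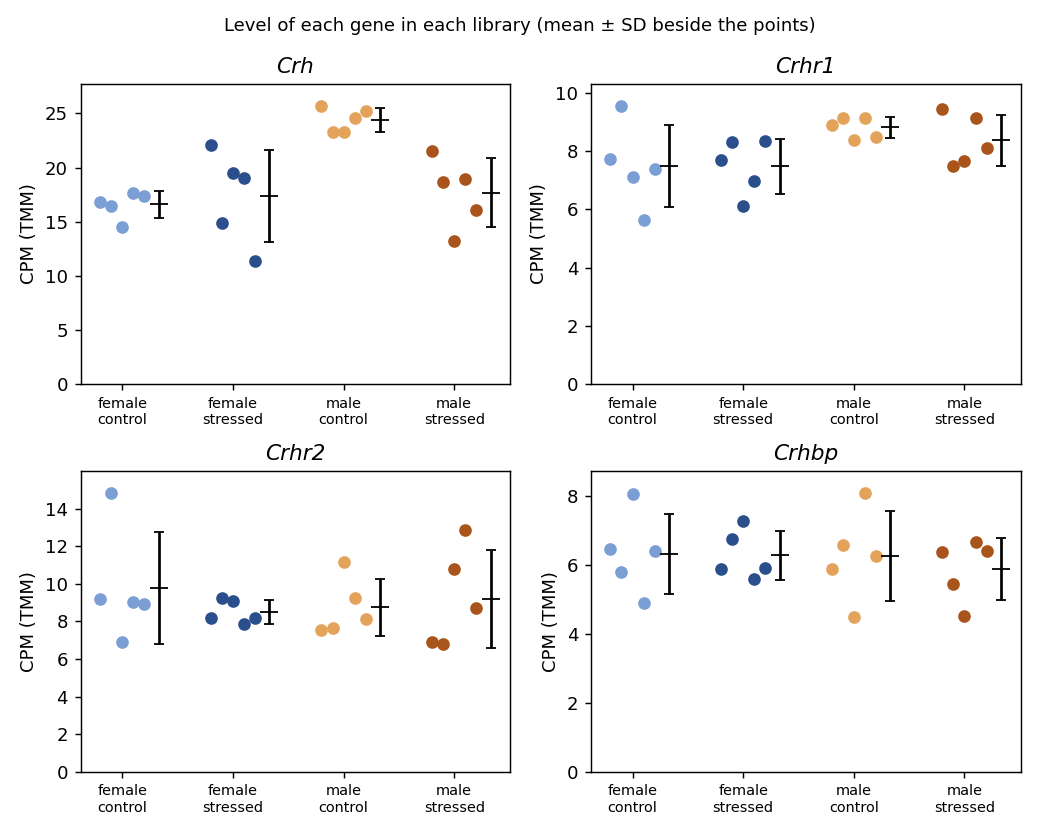
Level of Crh, Crhr1, Crhr2 and Crhbp in CPM (vertical axes, from 0) in each of the 20 libraries, 5 per group, drawn from replicate 1 to 5 from left to right, with the group mean ± SD as a bar beside the points. The male control points for Crh sit between 23.3 and 25.7 CPM, above all other libraries, while in the other 3 panels the groups of each comparison overlap.

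The spread of Crh was itself uneven between groups. Between libraries of a group, the coefficient of variation of Crh was 4.49% in male controls and 7.49% in female controls, against 18.0% in stressed males and 24.4% in stressed females. Counting error alone would give 5.95% and 8.80% in the control groups, and 5.87% and 6.08% in the stressed groups. The control libraries thus differed by no more than counting error alone gives for this gene, and the stressed libraries by more. Whether the spread of Crh differed between groups was not tested.

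The call for Crh differed between settings. A fit restricted to the male and female controls gave an adjusted p of 0.000368, and DESeq2 gave 0.0109, with log2 differences of 0.58 and 0.57. For stress in males the same 2 settings gave adjusted p-values of 0.0258 and 0.0420. Over the 10 alternatives the adjusted p ran from 0.000368 to 0.196 for sex in controls, with 4 calls, and from 0.0258 to 0.769 for stress in males, with 3 calls. With 1 library left out at a time, the log2 sex difference in controls ran from 0.53 to 0.60 with adjusted p-values from 0.0659 to 0.119, and the male stress effect from -0.56 to -0.40 with adjusted p-values from 0.0798 to 0.286, the highest without stressed male 3.

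The list of striatal markers also separated control from stressed males. The 11 striatal genes summed to 1914 to 2381 CPM in male controls, 2695 to 4250 in stressed males, 1980 to 4208 in stressed females and 2075 to 3787 in their controls, so the control and stressed males did not overlap on it. With the striatal score (the mean log2 CPM of the list) in the model, the sex difference in Crh was 0.48 in controls (adjusted p 0.196) and the stress effect in males -0.40 (adjusted p 0.769). How much of the Crh differences the striatal share accounts for was not tested beyond this fit. Within groups, Crh and the striatal score correlated with r -0.245 and rho -0.161 over 20 libraries (permutation p 0.470 and 0.578, adjusted 0.727 and 0.761 over the 48 pairs of a member and a marker list), and r was -0.194 without stressed females 2 and 5.

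The list of GABAergic and extended amygdala neurons separated the same groups as a score but not as a sum. It includes general GABAergic genes such as Gad2, so it does not measure this nucleus alone. Its summed CPM overlapped between all groups, with means from 2826 ± 110 to 2885 ± 45.1 CPM, and Gad2 has the largest share of that sum. Its score, which weights the 13 genes equally, is given as the log2 difference from the mean of all 20 libraries. The score of the male controls ran from 0.043 to 0.12, above all stressed males (-0.13 to 0.039) and all female controls (-0.11 to 0.021), while stressed females (-0.064 to 0.093) overlapped the male controls. Genes of the list went both ways. In controls the log2 sex difference was 0.84 for Tac2 (adjusted p 0.0306), 0.36 for Nts (adjusted p 0.115) and 0.33 for Cartpt (adjusted p 0.223). Tac2 was the only gene of the list called there, where 0.747% of all genes were called. It was -0.20 for Meis2, -0.13 for Six3 and 0.020 for Gad2. With stress in males Tac2 was at -0.56 and Nts at -0.40, but Meis2 at 0.26 and Slc32a1 at 0.079. Of the marker lists, this one had the strongest correlation with Crh within groups, at r 0.610 (permutation p 0.0308, adjusted p 0.350 over the 48 pairs) and rho 0.580 (permutation p 0.0376, adjusted p 0.476). The r was 0.587 without stressed female 3 and stressed male 4, and 0.536 to 0.678 over the fits without 1 library. The part of this score in the Crh differences was not tested.

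The receptor gene Crhr1 encodes the main CRH receptor. Libraries 1 to 5 of the stressed females held 7.69, 8.29, 6.11, 6.99 and 8.33 CPM, and those of their controls 7.74, 9.55, 7.10, 5.65 and 7.37. In male controls they held 8.88, 9.15, 8.39, 9.15 and 8.47 CPM, and in stressed males 9.45, 7.48, 7.68, 9.12 and 8.11. Means were 8.81 ± 0.362 CPM in male controls, 8.37 ± 0.876 in stressed males, 7.48 ± 0.942 in stressed females and 7.48 ± 1.40 in female controls. In each of the 4 comparisons between groups the libraries overlapped, in controls through female control 2 alone. The log2 difference between the sexes was 0.17 in controls (95% interval -0.055 to 0.40, adjusted p 0.479) and 0.28 without female control 2, and it was 0.14 in stressed mice (-0.077 to 0.36, adjusted p 0.810). Stress went with a log2 fold change of -0.047 in females (-0.28 to 0.18) and -0.081 in males (-0.30 to 0.14), and the interaction was -0.034 (-0.35 to 0.28).

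Crhr2, which encodes the receptor that prefers urocortins, had the largest fitted spread between libraries of a group, a biological coefficient of variation of 18.3% against 14.0% for Crh, 12.4% for Crhbp and 8.28% for Crhr1. In CPM, libraries 1 to 5 of the female controls held 9.17, 14.8, 6.89, 9.04 and 8.95, and those of the stressed females 8.17, 9.23, 9.09, 7.84 and 8.17. Male controls held 7.54, 7.67, 11.1, 9.26 and 8.13 CPM, and stressed males 6.92, 6.78, 10.8, 12.8 and 8.70. Female control 2, at 14.8 CPM, was the highest of all 20 libraries, and male control 3 and stressed males 3 and 4 also exceeded 10 CPM. Means were 9.77 ± 2.97 CPM in female controls, 9.20 ± 2.60 in stressed males, 8.75 ± 1.499 in male controls and 8.50 ± 0.621 in stressed females, and no neighbours in this order differed beyond their spread. With stress, Crhr2 differed by -0.23 on the log2 scale in females (95% interval -0.61 to 0.15) and 0.15 in males (-0.22 to 0.51), and the sexes differed by -0.21 in controls (-0.59 to 0.18) and 0.17 in stressed mice (-0.19 to 0.53). The interaction was 0.37 (-0.15 to 0.90, adjusted p 0.632). Without female control 2 the female stress effect was 0.018, the sex difference in controls 0.041 and the interaction 0.13. Without stressed male 4 the male stress effect was -0.011, the sex difference in stressed mice 0.011 and the interaction 0.22. Without female control 3 the female stress effect was -0.35, the sex difference in controls -0.33 and the interaction 0.50. The size of the Crhr2 differences thus depended on single libraries.

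Crhr2 varied with the genes listed for the lateral septum, a neighbour of the nucleus. After subtraction of group means, Crhr2 correlated with the lateral septum score over 20 libraries with r 0.735 (permutation p 0.00053, adjusted p 0.0254 over 48 pairs) and rho 0.827 (permutation p 9.0e-05, adjusted p 0.00432). The r was 0.728 without stressed female 4 and stressed male 2, the farthest from the median of the score, and 0.701 to 0.783 over the fits without 1 library. These correlations with marker lists were added after the data were seen. The libraries with the most Crhr2 had the highest sums in their groups: female control 2 summed to 331 CPM over its 6 genes and stressed male 4 to 341 CPM. The group ranges of that sum overlapped, at 214 to 303 CPM in male controls, 220 to 341 in stressed males, 201 to 303 in stressed females and 227 to 331 in their controls. With the lateral septum score in the model, an alternative added after the files were seen, the Crhr2 effect of stress was -0.026 in females and -0.056 in males, and the interaction -0.031. Beyond this fit, the part of septal tissue in the Crhr2 differences was not tested. Crhr2 is not on that list, but Prdm16, the gene whose log2 CPM followed Crhr2 most closely (r 0.835), is. The list was chosen with earlier results of these data known.

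**Figure D2:**
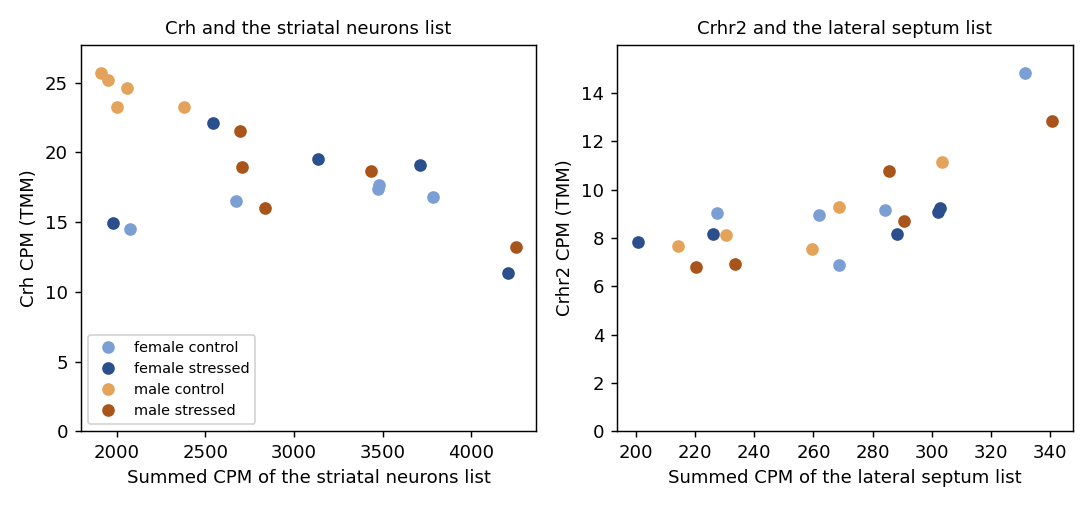
Left, Crh in CPM against the summed CPM of 11 striatal genes; right, Crhr2 in CPM against the summed CPM of 6 lateral septum genes, with 1 point per library coloured by group. In the left panel male controls sit at 1914 to 2381 on the horizontal axis and above 23 CPM on the vertical axis; in the right panel female control 2 and stressed male 4 lie at the upper right.

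Crhbp encodes the secreted protein that sequesters the peptide, and it was the member with the most even group levels. Stressed females held 5.89, 6.77, 7.29, 5.59 and 5.92 CPM in libraries 1 to 5, and female controls 6.47, 5.81, 8.06, 4.89 and 6.41. Male controls held 5.90, 6.59, 4.48, 8.08 and 6.25 CPM, and stressed males 6.39, 5.46, 4.51, 6.67 and 6.39. The highest and the lowest library of all 20 were both male controls, and all groups overlapped. Means were 5.88 ± 0.896 CPM in stressed males, 6.26 ± 1.30 in male controls, 6.29 ± 0.7102 in stressed females and 6.33 ± 1.16 in their controls, and no neighbours in this order differed beyond their spread. Log2 fold changes were -0.051 with stress in females (95% interval -0.35 to 0.25), -0.13 with stress in males (-0.42 to 0.15), -0.018 for sex in controls (-0.32 to 0.28) and -0.10 for sex in stressed mice (-0.39 to 0.18), and the interaction was -0.084 (-0.50 to 0.33). Counting error alone would give a coefficient of variation of 10.4% to 15.5% in its groups, against 11.3% to 20.7% between libraries.

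**Figure D3:**
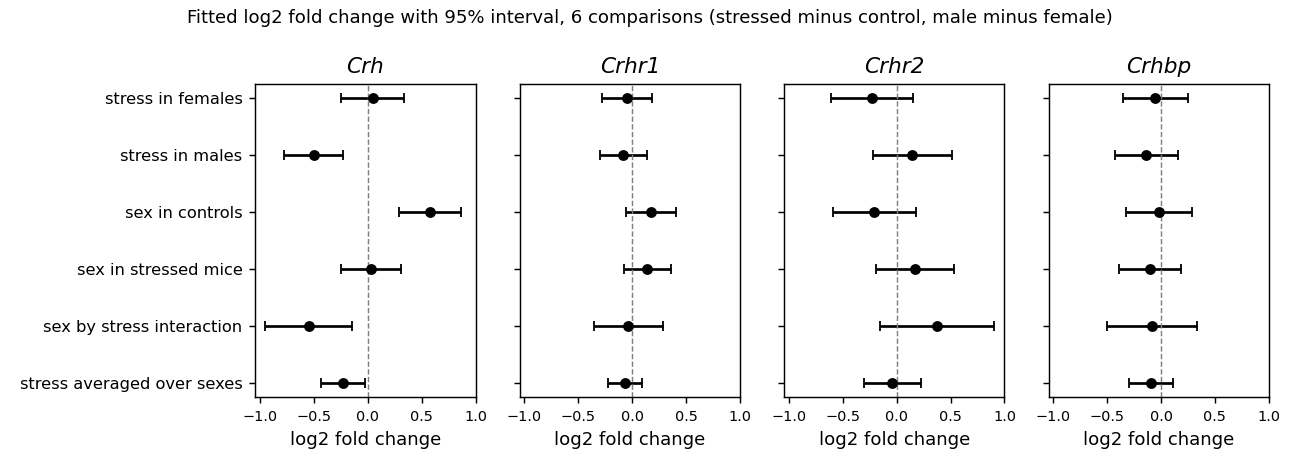
Fitted log2 fold change (horizontal axis) of each member in 6 comparisons (vertical axis), with the 95% interval from the fit; sex is male minus female and stress is stressed minus control. The intervals of Crh leave out 0 for stress in males, sex in controls, the interaction and stress averaged over the sexes, before any adjustment over genes; those of the other 3 members span 0 throughout.

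Among the 4 genes the balance of peptide to binding protein followed Crh. The ratio of Crh to Crhbp counts was 4.03 ± 0.819 in male controls (3.04 to 5.19), 3.01 ± 0.384 in stressed males (2.51 to 3.42), 2.79 ± 0.780 in stressed females (1.92 to 3.76) and 2.72 ± 0.646 in female controls (1.80 to 3.62). The ranges overlapped, and the ratio was given no test. The ratio of Crhr1 to Crhr2 counts was 1.03 ± 0.178 in male controls, 0.965 ± 0.278 in stressed males, 0.885 ± 0.129 in stressed females and 0.794 ± 0.166 in female controls. These ratios compare counts, which also depend on transcript length, so they serve to compare groups and not genes.

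No pair of members correlated past the threshold once group means were removed. Over 20 libraries, the 6 group-centred correlations ran from r -0.247 (Crhr2 with Crhbp) to 0.312 (Crhr1 with Crhr2), and rho from -0.229 to 0.296. Permutation p-values were at least 0.278 for r and 0.237 for rho, with adjusted values of 0.616 for every r and at least 0.855 for rho. Crhr1 with Crhr2 was at r 0.0356 without female controls 2 and 4, and Crh with Crhbp went from 0.128 to -0.170 without stressed female 5 and stressed male 3. Crhr1 correlated with the endothelial score at r -0.621 (permutation p 0.00174, adjusted p 0.0418) and rho -0.657 (permutation p 0.00248, adjusted p 0.0595), and at r -0.644 without male control 2 and stressed male 1. Of the 48 pairs of a member and a marker list, this one and Crhr2 with the lateral septum had an adjusted p of r under 0.05.

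Genes whose log2 CPM followed each member most closely over all 20 libraries were listed as a description, with what the libraries share in depth and dissection included. For Crh they were Pnmal2 (r 0.882), Hpcal1 (0.848), B630019K06Rik (0.836), Pde11a (0.831), which encodes a phosphodiesterase of cyclic nucleotides, and Npy2r (0.824), a neuropeptide Y receptor. Pde11a averaged 10.004 ± 0.471 CPM in male controls, 8.67 ± 1.32 in stressed males, 7.90 ± 0.617 in stressed females and 7.74 ± 0.615 in their controls. Each gene listed for Crh had its highest mean in male controls. The choice by r included the group differences, so this shared peak follows from the choice and is no separate result. For Crhr2 they were Prdm16 (0.835), a transcription factor on the lateral septum list, Pld5 (0.827), C130074G19Rik (0.784), Ubac2 (0.740) and Ndufaf8 (0.740). For Crhr1 they were Trpv2 (0.765), Lmnb2 (0.762), Arhgef11 (0.753), Tmem107 (0.751) and Mettl21a (0.744). For Crhbp they were Mrpl40 (0.768), Gstm1 (0.734), Hsbp1 (0.723), Mrpl41 (0.7104) and Yipf5 (0.697).

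Beyond the 4 members, 50 other genes of the pathway lists were measured. The urocortin gene Ucn3, a ligand, and 2 melanocortin receptors are among them and do not lie downstream of the CRH receptors. The downstream lists held 13 genes of G proteins, receptor kinases and arrestins, 8 adenylyl cyclases and 11 genes of protein kinase A and Epac. They also held 8 genes of CREB factors and coactivators and 7 cyclic AMP phosphodiesterases. In controls 1 of the 50 differed between the sexes, the melanocortin receptor gene Mc4r, higher in males, where 0.747% of all genes were called. No gene of the downstream lists was called in this comparison. Of the 50, 9 higher and 7 lower had an unadjusted p under 0.05, and the median log2 difference was 0.028, against 0.00025 over all genes. For stress in males 0 of 50 were called, with 11 higher and 9 lower at an unadjusted p under 0.05 and a median of -0.0093, against -0.0067 over all genes. For stress in females 0 of 50 were called, with 3 higher and 2 lower (median 0.014, against -0.0011 over all genes), and for sex in stressed mice 0 of 50, with 2 higher and 3 lower (-0.0030 against -0.00035). The interaction also called 0 of 50 (6 higher and 6 lower at an unadjusted p under 0.05, median -0.044 against 0.0028), as did stress averaged over the sexes (8 and 5, median 0.0084 against -0.0055). Of all genes, 15.3% had an unadjusted p under 0.05 for sex in controls and 15.5% for stress in males. That share was 7.51% for stress in females, 7.06% for sex in stressed mice, 10.4% for the interaction and 12.7% for the average. Whether the pathway counts differ from these shares was not tested.

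Mc4r encodes the melanocortin 4 receptor, which binds peptides made from POMC and couples, like the CRH receptors, to the stimulatory G protein. Its libraries 1 to 5 held 6.57, 7.13, 5.79, 6.00 and 6.38 CPM in male controls and 3.48, 4.18, 3.44, 4.89 and 4.35 in female controls. Stressed males held 5.72, 5.55, 4.10, 5.11 and 4.02 CPM, and stressed females 4.21, 4.09, 4.70, 3.83 and 3.54. All 5 male controls lay above all other libraries, as for Crh, a separation whose share over all genes was not counted. The log2 difference in controls was 0.71 (SE 0.13, adjusted p 0.00780), on 13 to 204 counts per library, and adjusted p-values stayed between 0.00125 and 0.0454 over the 10 alternatives and the 10 fits without 1 library. The other measured melanocortin receptor, Mc3r, differed by 0.18 (adjusted p 0.790).

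Among the cyclases and arrestins, the pathway genes with the smallest p for stress in males were Arrb2 and Adcy7, neither of which passed. Arrb2, which encodes an arrestin that desensitizes receptors of this class, averaged 42.3 ± 3.78 CPM in male controls and 34.2 ± 1.57 in stressed males. The libraries of the 2 groups did not overlap (37.4 to 47.6 against 32.9 to 36.9, log2 fold change -0.31, adjusted p 0.0806). In this comparison 4.3% of all genes did not overlap. Adcy7, an adenylyl cyclase, averaged 20.9 ± 2.69 and 14.2 ± 1.54 CPM (18.6 to 24.2 against 12.7 to 16.6; -0.54, adjusted p 0.0806). In females their log2 fold changes were 0.042 and 0.0265, and the interaction was -0.35 for Arrb2 (adjusted p 0.266) and -0.56 for Adcy7 (adjusted p 0.306). The other arrestin gene, Arrb1, averaged 362 ± 6.48 CPM in male controls and 400 ± 16.4 in stressed males (log2 fold change 0.14, adjusted p 0.164). Of the 8 cyclases, 3 were higher and 4 lower in stressed males at an unadjusted p under 0.05, against 15.5% of all genes. Whether the cyclases differ from that share was not tested. The striatal list separated the same 2 groups, and its part in these values was not tested. Adcy5, the most abundant cyclase, was at 0.53 (adjusted p 0.106). Rapgef4, which encodes the cyclic AMP sensor Epac2, had the smallest p of the 50 for the interaction (0.53, adjusted p 0.195): its mean went from 473 ± 60.1 to 606 ± 50.7 CPM in males and from 600 ± 66.4 to 529 ± 41.6 in females. For stress in females the smallest p-values were those of Crebbp, a CREB coactivator, at 0.22 (adjusted p 0.597), and Mc3r at 0.32 (adjusted p 0.630).

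Of the other CRH family ligands only Ucn3, a ligand of CRHR2, was measured. It ranged from 1.24 to 8.99 CPM over the 20 libraries, and its group means were 4.02 ± 1.58 CPM in stressed males, 4.59 ± 1.48 in male controls, 5.12 ± 2.57 in stressed females and 6.44 ± 1.71 in their controls. Its log2 fold changes were -0.24 with stress in females, -0.34 in males and -0.36 for sex in controls, with adjusted p-values from 0.677 to 0.922. By CPM, which is not corrected for length, the highest genes of the downstream lists were Gnas, the stimulatory G protein alpha subunit, at 1516 CPM, Prkacb, a catalytic subunit of protein kinase A, at 1016 CPM, Adcy5, a cyclase abundant in striatal neurons, at 800.4 CPM, Crtc1, a CREB coactivator, at 268 CPM, and Pde7b, a phosphodiesterase, at 219 CPM.

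**Figure D4:**
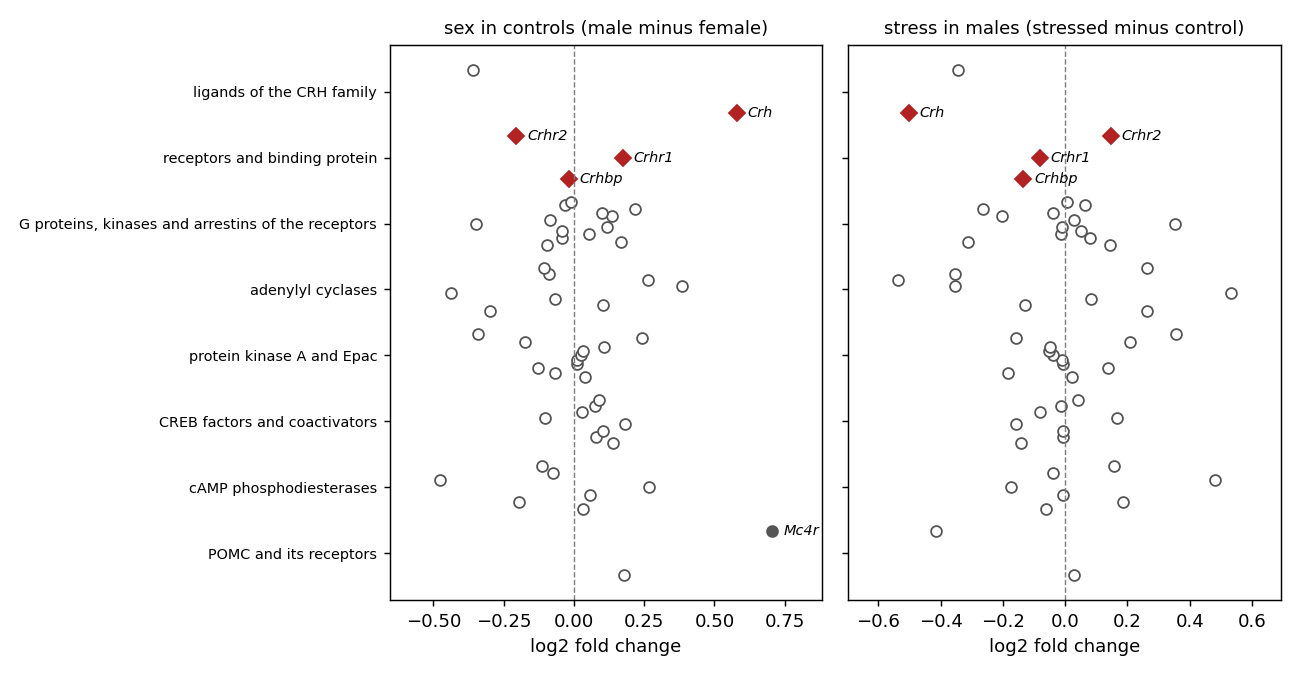
Log2 fold change (horizontal axes) of the 4 members (red diamonds) and 50 other pathway genes (circles), by list, for sex in controls on the left and stress in males on the right; a filled circle is a gene with an adjusted p under 0.05. Mc4r at 0.71 is the filled circle on the left, near Crh at 0.58, and on the right Crh lies at -0.50 with no filled circle.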

How the data were processed

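The authors deposited whole-number counts per gene for 20 libraries, each from pooled tissue of 3 mice. The library kit keeps strand (TruSeq Stranded mRNA, per the labels' protocols), and STAR, featureCounts and the build mm10 are named in the submitters' processing notes, with no versions. The annotation and the strand setting are not given in the sources used here. Every gene had at least 1002 counts in total, so genes under some filter on totals were not analysed here. All columns were matched to samples by their labels.

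The test was that of edgeR 4.0.16, run in R 4.3.3: filterByExpr, which kept all 12988 genes, TMM, 1 mean per group and the quasi-likelihood test, two-sided, with Benjamini-Hochberg adjustment over all genes and a threshold of 0.05. CPM used TMM factors, log2 CPM a prior count of 2, and intervals are at 95%. P-values measure the spread between pools. Correlations used 100000 permutations within groups. The fit was tested on simulated data. The members and lists were chosen with earlier results of these data known. The 57 symbols of the pathway lists include 2 older names. Genes named were the members, pathway genes called or with the 2 smallest p, the most abundant gene of each list and the 5 genes most like each member. Where the genes of a list went both ways, further genes of it were named. Alternatives were DESeq2 1.42.0 and its size factors, limma-voom (limma 3.58.1), the robust option, no filter, only the groups compared, the replicate block, 3 marker scores as covariates and each library left out.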

Additional observations from a re-analysis of the deposited data

Results flagged for a closer look

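Crhr2 in female control 2, at 14.8 CPM, lay far from the other 4 female controls (6.89 to 9.17 CPM): its gap to the next library took 0.712 of the group's range, above the limit of 0.71 for 5 libraries. Of 16 groups of a gene and a condition examined, this was the 1 beyond the limit, and chance alone flags about 1 in 20. The same library summed to 331 CPM over the lateral septum list, the highest female control.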

How the results depend on the processing

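Over 229 alternative fits of the 4 members and 6 comparisons, 7 added a call, all for Crh, and 12 changed a sign; over 320 fits without 1 library, 0 added a call and 25 changed a sign. Calls of Crh were added by DESeq2 (0.57 for sex in controls, -0.49 for stress in males), by fitting only the groups compared (0.58 and -0.50) and by the lateral septum score (0.56 and -0.48), and for sex in controls by the oligodendrocyte score (0.61). With the replicate number as a block, the replicate block gave Crh 0.57 for sex in controls (adjusted p 0.0695) and -0.49 for stress in males (adjusted p 0.176). Same-numbered libraries of different groups correlated with r from -0.473 to 0.237, over 0.1 in 5 of 30 pairs. Libraries of different numbers were not compared, so these values cannot decide whether the numbers pair the samples. No label says that they do.

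Sign changes, for which the cause was not tested, were of uncalled values. With limma-voom Crh was -0.035 for stress in females and Crhbp 0.0021 for sex in controls. The striatal score gave Crhbp 0.053 with stress in males, 0.094 in the interaction and 0.0061 averaged over the sexes, and Crhr1 0.039 for the interaction. The oligodendrocyte score gave Crhbp 0.051 for stress in females and 0.031 for sex in controls. The lateral septum score gave Crhr2 -0.056 with stress in males, 0.037 for the controls' sex difference and -0.031 in the interaction, and Crhbp 0.011 for sex in controls. Ranges without 1 library, with the library behind the sign change at its end, were, for stress in females, -0.039 (without stressed female 1) to 0.18 for Crh, -0.093 to 0.062 (female control 2) for Crhr1, -0.35 to 0.018 (female control 2) for Crhr2 and -0.10 to 0.051 (female control 3) for Crhbp. With stress in males Crhr2 ran from -0.011 (stressed male 4) to 0.23. In controls the sex difference ran from -0.33 to 0.041 (female control 2) for Crhr2 and from -0.15 to 0.083 (female control 3) for Crhbp, and in stressed mice from -0.10 (stressed female 5) to 0.13 for Crh. The interaction ran from -0.14 to 0.012 (stressed female 2) for Crhr1 and from -0.19 to 0.044 (male control 4) for Crhbp, and Crhr2 averaged over the sexes from -0.12 to 0.081 (female control 2).

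The number of pathway genes called for stress in males was 6 with DESeq2, 8 with only the groups compared, 1 with the oligodendrocyte and 12 with the lateral septum score, and 0 to 3 without 1 library. Sex in controls gave 5, 6, 4 and 10 under these settings, and 1 to 4. The interaction gave 1 with DESeq2, 1 with the oligodendrocyte and 3 with the lateral septum score, and the average over the sexes 0 to 1 without 1 library. The share of all genes called under each of these settings was not counted. These counts therefore have no background beside them and are not a result about the pathway. DESeq2 gave no adjusted p for Crhr1, Crhr2 and Crhbp with stress averaged over the sexes. Depth limits Crhr1, Crhr2 and Crhbp most in female control 4, at 15, 24 and 13 counts.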
